A study of Mus musculus with 2 samples.

Results

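The cell cycle and mitosis genes described here are 43 protein-coding genes, chosen by a list of symbols from the 55536 genes of the deposited tables, of which 22028 are protein-coding. Each symbol was matched in the transcript identifiers, and the gene identifier found there was used in every table. All 43 symbols were found. The genes were sorted by role into a cyclin D arm of 5 genes, a G1/S switch of 7, CDK inhibitors of 4, replication of 10, mitotic cyclins, kinases and checkpoint of 12, and chromosome structure of 5.

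The series holds 2 libraries of ribosomal-RNA-depleted total RNA from the nucleoplasmic part of the nuclear fraction of C57BL/6J mouse macrophages grown from bone marrow. Both came from cells given Lipid A, the membrane anchor of bacterial lipopolysaccharide and the ligand of TLR4, at 100 ng/ml for 12 h, kept without it for 12 h, and given 100 ng/ml again for 10 min. They are biological replicates 1 and 2 of this condition, prepared from 1 µg and 500 ng of RNA, and no untreated, single-dose or cytoplasmic library was analysed here. The labels give both libraries the same donor entry and do not say whether the cultures came from separate animals, and age and sex were not collected. Gene counts summed to 24444189 in replicate 1 and 18051075 in replicate 2, of which the 43 genes held 0.0763% and 0.0932%. With 2 libraries in 1 group the smallest exact two-sided p is 0.5, so values are given for each library and replicate differences carry no test.

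The cell cycle is driven by cyclin-dependent kinases (CDKs), which need a cyclin partner and are held back by CDK inhibitors. Cyclin D with CDK4 or CDK6 and cyclin E with CDK2 phosphorylate the retinoblastoma protein, which frees E2F factors to switch on replication genes, while cyclin A and cyclin B with CDK1 drive entry into mitosis. In cells that leave the cycle, the DREAM repressor complex holds mitotic genes down through promoter elements called CHR, and replication genes through E2F elements. Macrophages grown from bone marrow in culture can divide in response to colony-stimulating factor, and lipopolysaccharide is known to arrest them before DNA synthesis.

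The labelled cell type was checked first. All 10 macrophage markers were detected, at summed levels of 3484 and 3143 TPM (transcript levels scaled to length and to the library's total) in replicates 1 and 2. None of 12 myeloid progenitor markers was detected. Their summed levels were 1.12 and 1.62 TPM, and the granule gene Elane and the progenitor gene Ms4a3 were at 0 counts in both libraries. None of 8 neutrophil, 6 lymphoid or 6 fibroblast and stromal markers was detected, and of 6 erythroid markers 1 was, Alas2, at 1.90 and 2.28 TPM.

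Promoters are shown because the role groups differ in their elements as well as in their levels. RefSeq windows on GRCm38.p6, from 250 bases before to 50 bases after a gene's start, matched 36 of the 43 genes, with 41 windows since 5 genes have more than 1. The genes Ccna2, Aurkb, Ccnd2, Mcm4, Ccne2, Rb1 and Ccnd1 had no entry. The letters searched on both strands were TTTGAA and TTTAAA for CHR, CCAAT for the box bound by NF-Y, and TTTCCCGC, TTTGGCGC and TTCCCGCC for E2F. The last 120 bases before the start are printed 5′ to 3′ on the gene's strand for 7 genes, with every match in capitals on either strand, so that a CCAAT box on the opposite strand reads ATTGG. The stretches are chr4:118437344-118437463 (minus) for Cdc20, chr13:100786487-100786606 (minus) for Ccnb1, chr10:69352913-69353032 (minus) for Cdk1, chr7:122159315-122159434 (plus) for Plk1, chr5:30666766-30666885 (plus) for Cenpa, chr1:128359706-128359825 (minus) for Mcm6 and chr10:127063415-127063534 (plus) for Cdk4.
Cdc20: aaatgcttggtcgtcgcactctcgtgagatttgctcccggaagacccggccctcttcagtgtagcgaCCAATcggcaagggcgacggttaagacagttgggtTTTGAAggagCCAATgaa
Ccnb1: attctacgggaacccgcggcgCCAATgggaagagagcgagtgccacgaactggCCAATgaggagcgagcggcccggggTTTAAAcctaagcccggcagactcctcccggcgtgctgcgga
Cdk1: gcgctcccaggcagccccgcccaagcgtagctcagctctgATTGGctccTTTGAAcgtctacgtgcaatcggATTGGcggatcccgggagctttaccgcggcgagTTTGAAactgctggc
Plk1: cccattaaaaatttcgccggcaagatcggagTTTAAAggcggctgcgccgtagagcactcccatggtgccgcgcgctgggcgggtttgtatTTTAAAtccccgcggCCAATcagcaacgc
Cenpa: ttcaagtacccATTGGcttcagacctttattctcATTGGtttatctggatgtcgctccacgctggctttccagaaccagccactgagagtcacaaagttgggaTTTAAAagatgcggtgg
Mcm6: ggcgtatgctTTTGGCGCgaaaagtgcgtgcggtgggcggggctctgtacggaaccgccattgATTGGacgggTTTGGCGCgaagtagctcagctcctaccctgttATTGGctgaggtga
Cdk4: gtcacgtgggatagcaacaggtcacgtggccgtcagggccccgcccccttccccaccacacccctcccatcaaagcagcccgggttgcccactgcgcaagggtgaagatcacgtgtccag

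The Cdc20 stretch holds a CHR match that begins 18 bases before the start, between a pair of CCAAT boxes that begin 53 and 8 bases before it. The Ccnb1, Cdk1, Plk1 and Cenpa stretches also hold CHR matches and CCAAT boxes. Mcm6, a replication gene, holds the E2F letters TTTGGCGC at both 110 and 47 bases before its start and no CHR match. The Cdk4 stretch has none of these letters.

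Over whole windows, CHR letters were present in 8 of 10 windows of the mitotic group, 5 of 5 of chromosome structure, 3 of 10 of replication and 0 of 4 of the cyclin D arm. The share was 46.3% over all windows of the 43 genes and 27.6% over 32851 promoter windows of the same length. E2F letters were present in 5 of 10 replication windows, 3 of 6 of the G1/S switch and 0 of 10 of the mitotic group, against 3.21% of all promoter windows. CCAAT was in 75.6% of the genes' windows and in 37.4% of all windows. The 19 genes with a CHR match had a median level of 0.90 TPM. Of these, 8 were detected by the limits given next, which 42.9% of all protein-coding genes met. The 17 genes with a window but no CHR match had a median of 4.41 TPM, with 15 detected. CHR letters and role go together in these genes, so their relations to level cannot be told apart. Detected shares with and without CHR letters were not taken over all promoters. The matches describe letters only, and binding was not measured.

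Of the 43 genes, 27 were detected, that is at 1 TPM or more and at 10 counts or more in both libraries. Over all protein-coding genes the share was 42.9%. The median over the 43 genes was 1.49 TPM in replicate 1 and 2.18 TPM in replicate 2, against 0.30 and 0.38 TPM over all protein-coding genes. Set against detected protein-coding genes alone, whose median was 7.99 TPM, 6 of the 43 stood above it (Cdkn1a, Cdk4, Pcna, Rb1, Cdk6 and Cdkn1b). Of the 16 genes not detected, 7 missed the TPM limit in replicate 1 only (Ccne1, Ccne2, E2f2, Ccna2, Ccnb1, Aurkb and Birc5). The other 9 missed it in both libraries (Rrm2, Tyms, Ccnb2, Plk1, Aurka, Cdc20, Bub1, Bub1b and Cenpf). In bulk RNA, fewer cycling cells and less RNA per cell cannot be told apart. In the order of mean levels, 36 of the 42 neighbouring pairs overlapped in their library values, and the 6 that did not followed Cdk6, Ccnd1, Ccnd3, Cdc25a, Cdkn2c and Aurka.

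**Figure D1:**
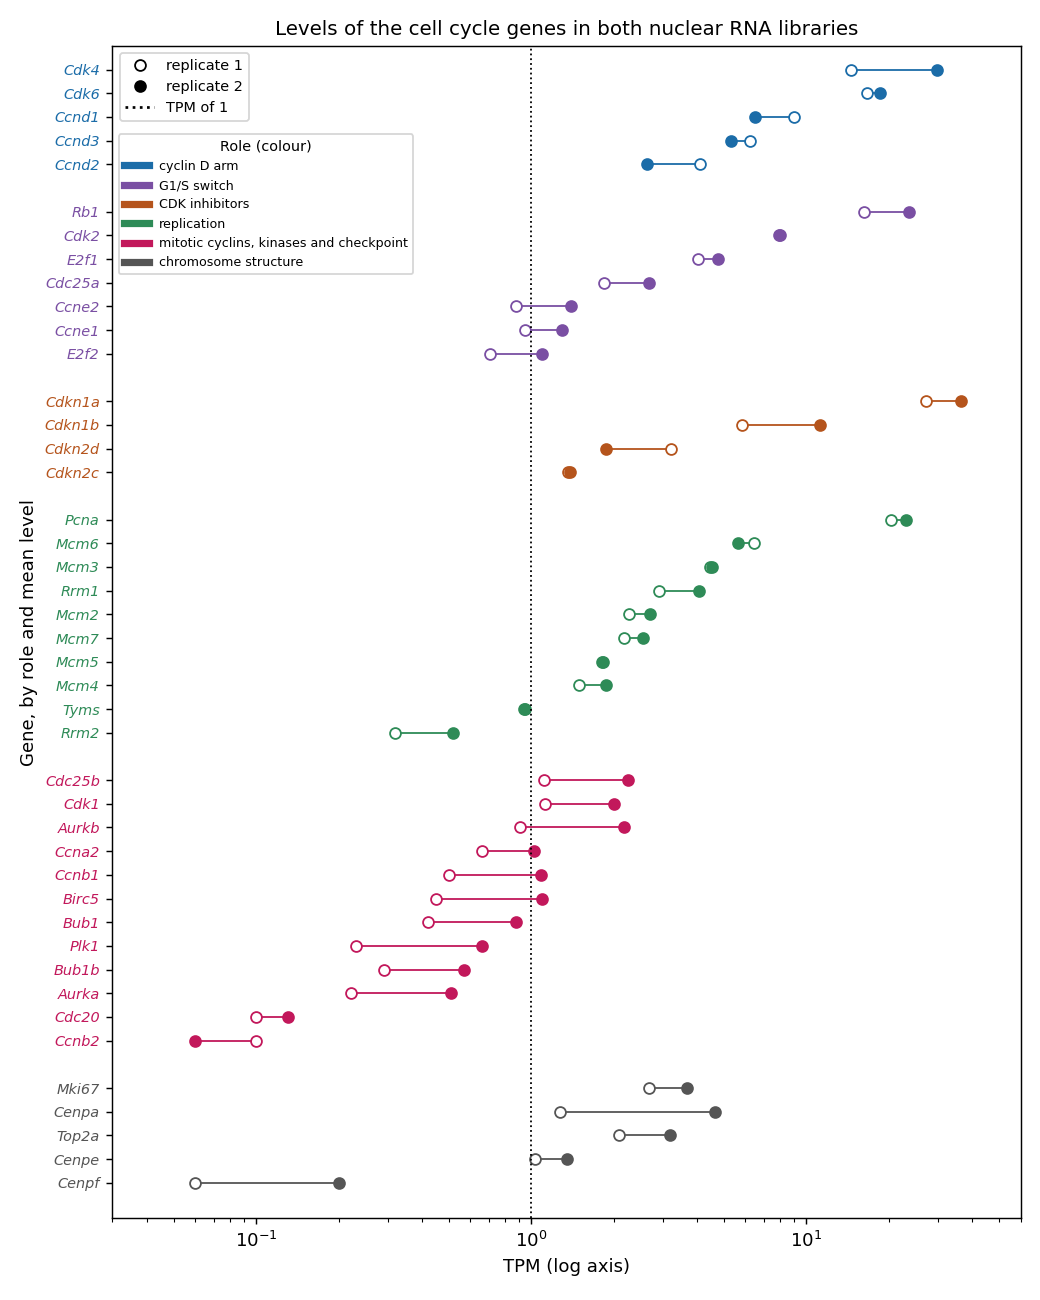
TPM of each of the 43 genes on a log axis, by role (colour) and mean level, with replicate 1 as open and replicate 2 as filled points and a dotted line at 1 TPM. All 5 genes of the cyclin D arm and all 4 CDK inhibitors lie to the right of the line in both libraries, while 10 of 12 mitotic genes lie to its left in at least 1 library.

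The 4 CDK inhibitors among the 43 genes were all detected and held the gene with the highest level of the 43. Cdkn1a encodes p21, which binds and blocks CDK2 complexes and is a p53 target. It stood at 27.3 and 36.5 TPM in replicates 1 and 2 (31.9 ± 6.51, SD, n = 2), above 87.8% of detected protein-coding genes. Its counts were 1716 and 1617, and 9.78% of its 31-base words occur in transcripts of other genes. Cdkn1b encodes p27, another inhibitor of CDK2, and stood at 5.85 and 11.2 TPM. The INK4 genes among the 43, whose proteins bind CDK4 and CDK6, were lower. Cdkn2d (p19) had 3.22 and 1.86 TPM and Cdkn2c (p18) 1.36 and 1.38 TPM. Outside the 43, the inhibitor genes Cdkn1c (0.36 and 1.03 TPM), Cdkn2b (0.19 and 0.25) and Cdkn2a (0.04 and 0) were not detected. The library values of Cdkn1b and Cdkn2d differed in opposite directions.

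The cyclin D arm was detected in all 5 genes, at a median of 7.74 TPM. Cdk6, a catalytic partner of D cyclins, had 16.6 and 18.5 TPM (17.5 ± 1.38, SD, n = 2), on 3969 and 3673 counts, the most of any of the 43 genes. Its sister kinase gene Cdk4 was listed at 14.5 and 29.9 TPM on nearly equal counts, 732 and 724, a case described with the transcript forms below. Among the D cyclins, which link growth factor signals to the cycle, Ccnd1 had 8.99 and 6.49 TPM, Ccnd3 6.24 and 5.32 TPM, and Ccnd2 4.09 and 2.64 TPM. All 3 were lower in replicate 2 by these values. By TPM of the second quantification described below, Ccnd1 (3.75 and 4.10) and Ccnd3 (2.45 and 2.64) were higher in replicate 2. Ccnd2 (2.64 and 1.82) was lower. Normalised counts of all 3 were lower in replicate 2 in both quantifications.

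The G1/S switch was split by level. Rb1, the retinoblastoma gene that restrains E2F, stood at 16.1 and 23.5 TPM (19.8 ± 5.23, SD, n = 2), and Cdk2, the kinase partner of cyclins E and A, at 7.92 and 8.04 TPM. The activator E2f1 had 4.03 and 4.78 TPM and the phosphatase gene Cdc25a, whose product activates CDK2, 1.84 and 2.68 TPM. The E cyclins were near the limit, at 0.95 and 1.29 TPM for Ccne1 and at 0.88 and 1.39 TPM for Ccne2. E2f2 had 0.71 and 1.09 TPM. The switch thus held its restraining gene at a higher level than either E cyclin, with no overlap between their library values.

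Of the replication genes 8 of 10 were detected, at a median of 2.42 TPM. Pcna, the sliding clamp of DNA polymerase that also serves in repair, was highest at 20.3 and 23.1 TPM (21.7 ± 1.92, SD, n = 2). The 6 genes of the MCM helicase, which unwinds DNA at the fork and is assembled in equal parts, did not have equal levels. Mcm6 led with 6.44 and 5.62 TPM and Mcm3 followed with 4.47 and 4.55 TPM. Mcm2 had 2.26 and 2.71 TPM and Mcm7 2.18 and 2.54 TPM, and the lowest were Mcm5 at 1.82 and 1.81 TPM and Mcm4 at 1.49 and 1.86 TPM. The ranges of Mcm6 and of Mcm3 did not overlap with any of the other 5 subunits. By the second quantification described below, Mcm6 stayed apart at 2.92 and 3.35 TPM. Mcm3, at 1.62 and 2.19 TPM, overlapped there with Mcm7 at 1.21 and 1.73 TPM. The subunits of ribonucleotide reductase, which makes deoxynucleotides, were also unequal, with Rrm1 at 2.91 and 4.06 TPM and the S-phase subunit gene Rrm2 at 0.32 and 0.52 TPM on 19 and 24 counts. Tyms, the thymidylate synthase gene, had 0.94 and 0.95 TPM.

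The mitotic cyclins, kinases and checkpoint genes had the lowest group median in each library, 0.435 TPM in replicate 1 and 0.95 TPM in replicate 2 (0.71 TPM for the mean of both), and 2 of 12 were detected. These were Cdk1, the mitotic kinase gene, at 1.12 and 1.99 TPM, and Cdc25b, the phosphatase gene whose product activates CDK1, at 1.11 and 2.25 TPM. Of the cyclins that bind CDK1, Ccna2 had 0.66 and 1.02 TPM, Ccnb1 0.50 and 1.08 TPM, and Ccnb2 0.10 and 0.06 TPM. Cdc20, the activator of the anaphase-promoting complex, had 0.10 and 0.13 TPM on 5 counts in each library. The summed counts of the 12 genes were 414 and 558 in replicates 1 and 2, fewer than those of Cdk4 alone in either library. The order was reversed in the second quantification described below, where Birc5 alone had 442 and 490 counts and Cdk4 849 and 1063.

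By TPM, the mitotic kinase genes and their partners below were under 1 in replicate 1 and higher in replicate 2. TPM also rose by 0.23 (log2) in the median protein-coding gene. In the second quantification described below, the log2 count ratio was −0.08 for Aurka and 0.07 for Birc5. Aurkb, the kinase gene of the chromosomal passenger complex, had 0.91 and 2.18 TPM, and Birc5 (survivin), in the same complex, 0.45 and 1.09 TPM. The spindle checkpoint genes Bub1 and Bub1b had 0.42 and 0.88 TPM and 0.29 and 0.57 TPM. Plk1 stood at 0.23 and 0.66 TPM and the spindle pole kinase gene Aurka at 0.22 and 0.51 TPM. Their counts ranged from 15 for Aurka to 39 for Bub1b in replicate 1 and from 23 for Aurka to 62 for Bub1 in replicate 2.

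The chromosome structure genes lay above the mitotic group, with 4 of 5 detected and a median of 2.64 TPM (1.27 TPM in replicate 1 and 3.19 TPM in replicate 2). Mki67, the proliferation marker Ki-67 that coats mitotic chromosomes, had 2.67 and 3.68 TPM on 1044 and 1006 counts. Top2a, the topoisomerase gene that is used to untangle chromosomes, had 2.09 and 3.19 TPM. The kinetochore motor gene Cenpe had 1.03 and 1.35 TPM and the kinetochore gene Cenpf 0.06 and 0.20 TPM. Cenpa, which encodes the histone H3 variant of centromeres, differed most between libraries, at 1.27 and 4.66 TPM. Ki-67 is often read as a sign of cycling cells. Its gene was detected here, as were Top2a and Cdk1, while Ccnb1 at 0.50 and 1.08 TPM and Ccnb2 at 0.10 and 0.06 TPM were not. Of the 1.12 TPM of Cdk1 in replicate 1, 0.42 lay on a retained-intron form with 4.28 counts. Cdk1 had 2.27 and 2.71 TPM in the second quantification described below, and Ccnb1 0.29 and 0.81 TPM.

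Replicate ratios were taken as log2 of normalised counts, replicate 2 over replicate 1, with 95% intervals that cover counting error only. They could be set for 41 genes, those with 10 or more counts on average, which leaves out Cdc20 and Ccnb2. Of these, 29 were above 0 (70.7%, against 50.6% of protein-coding genes) and the median was 0.27. Past 2-fold, 3 were higher in replicate 2 (2.14% of protein-coding genes) and 0 were lower (4.06%). The intervals of 17 genes lay above 0 (26.2% of protein-coding genes) and those of 6 below 0 (27.4%). Over 15439 genes the spread between the libraries corresponded to a coefficient of variation of 0.225, so a counting interval away from 0 is common in these data.

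The ratios differed by role. All 10 mitotic genes that could be measured were above 0, with a median of 0.72, and their summed counts gave 0.71 (0.52 to 0.89). Bub1 had 32 and 62 counts, a log2 ratio of 1.22 (0.59 to 1.89), and Plk1 18 and 36 counts, a ratio of 1.25 (0.42 to 2.18). All 5 chromosome structure genes had intervals above 0, from 0.22 for Mki67 to 1.68 for Cenpa. The mitotic intervals were wide, and 5 of the 10 included 0. Plk1 also shares 18.7% of its 31-base words with other genes, chiefly with the pseudogene Plk-ps1, which was given 50 and 64 counts.

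The D cyclins differed the other way, at −0.62 (−0.76 to −0.47) for Ccnd1, −0.82 for Ccnd2 and −0.68 (−0.91 to −0.45) for Ccnd3. Cdk4 and Cdk6, their kinase partners, were at 0.26 and 0.16. Cdkn2d had 146 and 62 counts, a ratio of −0.95 (−1.41 to −0.52), while Cdkn1b had 792 and 1027 counts, a ratio of 0.65 (0.51 to 0.78). The replication genes lay close to 0, with a median of 0.04, 9 of 10 intervals that included 0 and only Mcm6 outside, at −0.29 (−0.47 to −0.12). The median of the replication group and that of the CDK inhibitors, 0.02, both passed to the other side of 0 when TPM was used less the median of all genes (−0.03 and −0.01), so no direction is given for them.

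**Figure D2:**
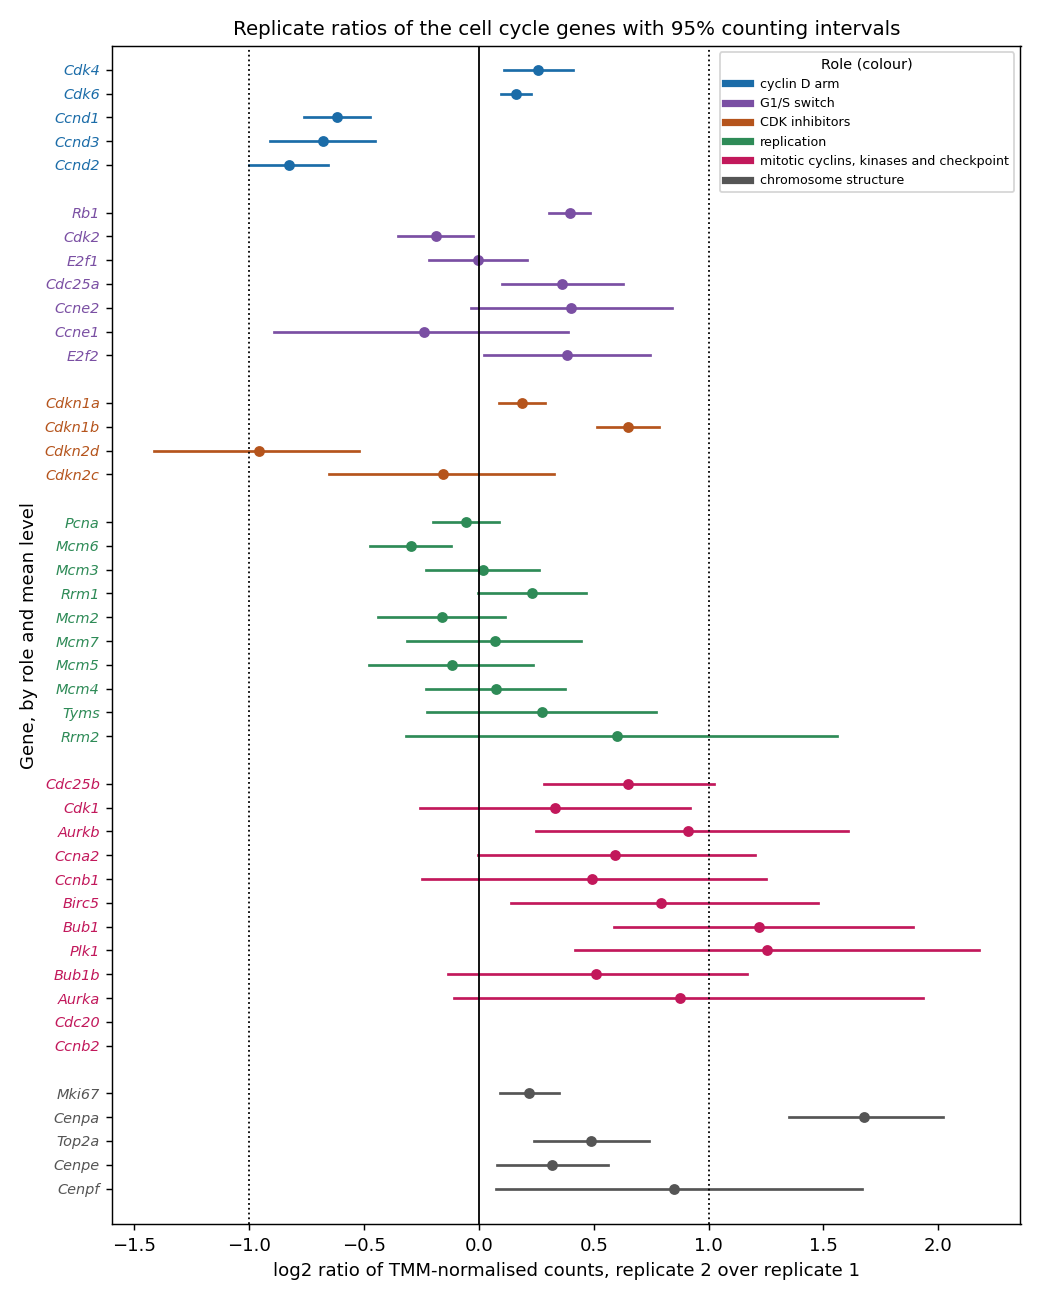
Log2 ratio of TMM-normalised counts, replicate 2 over replicate 1, for 41 genes averaging 10 or more counts, by role (colour). Points are ratios, bars are 95% counting intervals, dotted lines mark a 2-fold difference, and Cdc20 and Ccnb2 have no point. The 10 mitotic and 5 chromosome structure genes lie above 0 and the 3 D cyclins below it.

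Low counts and other cell types were looked at beside this difference. The 15 genes with mean counts from 10 to 100 had a median ratio of 0.59 with 13 above 0, while all protein-coding genes in that range had a median of 0.02. In that range 2 of the 15 were past 2-fold higher in replicate 2 (7.2% of protein-coding genes) and 0 were lower (9.92%). The 26 genes over 100 counts had a median of 0.12 with 16 above 0. All 10 macrophage markers were lower in replicate 2, at a median of −0.41. The 12 progenitor markers summed to 121 and 133 counts, a ratio of 0.41 (0.04 to 0.78). That sum rests on the stem cell factor receptor gene Kit at 41 and 68 counts, and without Kit the other 11 gave −0.02 (−0.52 to 0.47). Within the list Sox4, at 5.90 and 19.9 counts, was higher in replicate 2, and Myb at 45 and 33, Flt3 at 12 and 5 and Gfi1 at 11 and 1 were lower. The starting amount of RNA differed between the libraries as well. The part of these differences in the ratios was not tested.

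Nuclear RNA holds unfinished transcripts, and the deposited tables assign reads to annotated forms that include retained introns. Of the 43 genes, 39 had a protein-coding form as the leading form by mean share of TPM. The other 4 were led by a retained-intron form, Cenpa, Cdk1, Cdk4 and Tyms. The leading form differed between the libraries in 7 genes, Cdk1 and Cdk4 among them. Cdk1 was led by a protein-coding form in replicate 1 (38.6% against 37.1%). In the second quantification described below, a protein-coding form led Tyms (60.5% and 63.0% in replicates 1 and 2) and Cdk1 (58.5% and 73.3%). Cenpa and Cdk4 were still led there by a retained-intron form. Among the detected genes with such an annotated form, 10 of 19 had over 20% of TPM on retained introns in both libraries (56.8% of 5976 detected genes), and 2 of 19, Cdk4 and Cenpa, over 50% (12.1%). The median share was 25.2% for the 19 genes and 26.7% for the 5976.

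Single forms that are not protein-coding and held over 20% of a gene's TPM in both libraries were found in 7 genes. The same count was not taken over all genes. Cenpa-208 held 40.3% and 47.5% in replicates 1 and 2, and Tyms-206 36.3% and 77.0%. Cdk2-205 held 27.0% and 24.6%, Mcm3-203 26.1% and 23.5%, and Cdc25a-206 22.6% and 20.1%, all retained introns. In Ccna2 and Cdk1, Ccna2-204, annotated as a processed transcript, held 43.3% and 39.2% on 8.31 and 8.10 counts, and the retained intron Cdk1-204 held 37.1% and 49.2% on 4.28 and 6.90 counts. For these low-count genes a few reads on a short form set the share. Cenpa-208, Cdk2-205 and Ccna2-204 were over 20% in both libraries in the second quantification as well. Mcm3-203 (10.5% and 0%), Cdc25a-206 (16.0% and 16.7%), Cdk1-204 (21.5% and 10.9%) and Tyms-206 (19.3% in replicate 1) were not.

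Most of the Cenpa difference lay on Cenpa-208, which is an unspliced retained-intron transcript of 1 exon at chr5:30666960-30670765 on the plus strand of mm10, 3806 bases long. It took 73 and 220 of the 103 and 273 counts of Cenpa, with a deposited posterior SD of 0 in each library. Without Cenpa-208 the gene had 30.0 and 53 counts, still a ratio of 1.09 (0.42 to 1.79), with Cenpa-210, a form marked for nonsense-mediated decay, at 0 and 16.1 counts. Protein-coding forms of Cenpa took 15.6 and 8.71 counts, a log2 ratio of −0.52 (−1.92 to 0.71), while its other forms together gave 1.87 (1.52 to 2.24). In the other quantification Cenpa-208 had 152 and 443 counts, and its leading coding form had 14.4 and 22.1 counts, higher in replicate 2. The coding forms of Cenpa were too sparse for a direction.

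Cdk4 shows how forms enter the level. Its counts were 732 and 724, a log2 ratio of 0.26 (0.11 to 0.41), but its TPM ratio was 1.04 on the log2 scale. The effective length in the authors' table was 1272 bases in replicate 1 and 874 in replicate 2. A retained-intron form of 468 bases, Cdk4-209 at chr10:127066076-127067235, had 17.3 and 92.0 counts and 11.9% and 45.0% of the gene's TPM. Cdk4-209 ends before the first base of Tspan31 (chr10:127067280-127070264, minus strand), a gene that shares 641 exonic bases with other Cdk4 forms and was given 944 and 611 counts. Protein-coding forms of Cdk4 held 364 and 356 counts, a ratio of 0.24 (0.03 to 0.46) after normalisation, and its other forms together gave 0.27.

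In 2 further genes coding and other forms went separate ways. Cdk2 had 396 and 213 counts on protein-coding forms, a ratio of −0.62 (−0.87 to −0.38), against 0.21 (−0.02 to 0.44) on its other forms. These intervals leave out the error of assignment, since Cdk2-201 alone had 139 and 0 counts with posterior SDs of 30.7 and 20.5. In the other quantification the Cdk2 coding forms had 416 and 352 counts, a ratio of −0.32 (−0.53 to −0.11), and its other forms 0.00. Mcm2 had −0.31 (−0.61 to −0.02) on coding forms and 0.79 (0.02 to 1.60) on the others, and in the other quantification −0.24 (−0.49 to 0.02) and 0.38 (−0.09 to 0.86). E2f1 has only coding forms, and at a gene ratio of 0.00 its E2f1-201 form held 70.7% and 35.4% of TPM and its E2f1-202 form 29.3% and 64.6%. The deposited posterior SDs of these E2f1 forms were 24.3 and 19.3 counts, and in the other quantification E2f1-201 had 404 and 352 counts and E2f1-202 had 187 and 350. Counted on protein-coding forms alone, an alternative added after the values were seen, the mitotic median was 0.73 with all 10 genes above 0, and the chromosome structure median was 0.33 with 4 of 5 above 0.

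**Figure D3:**
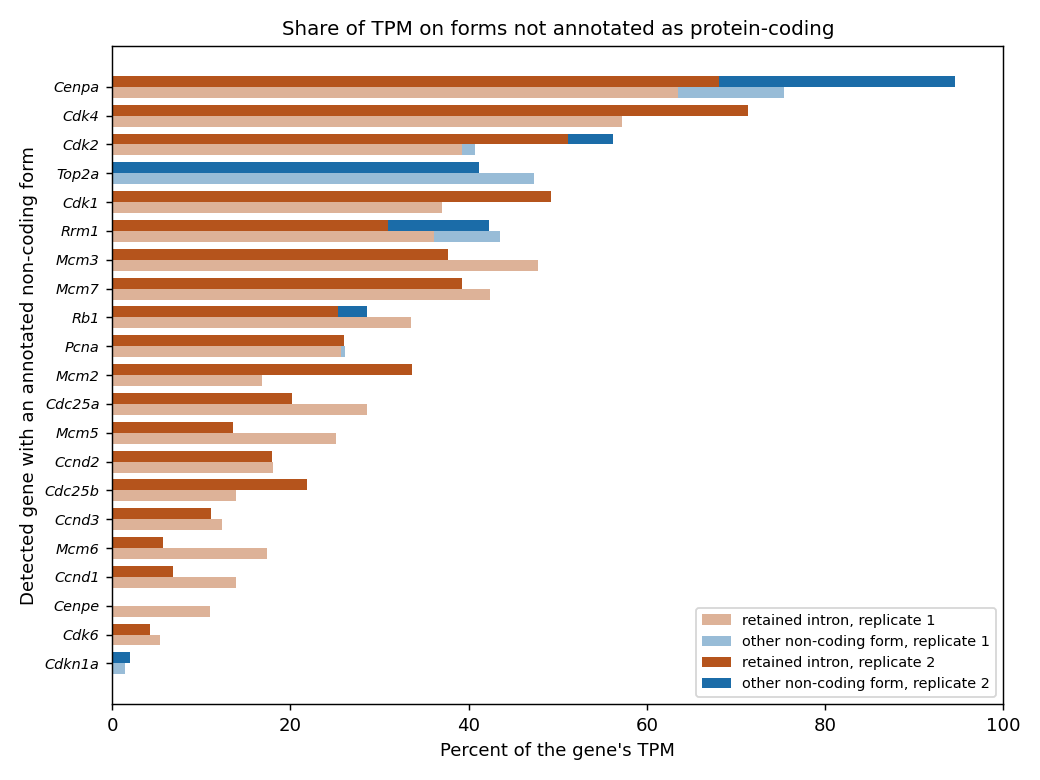
Percent of TPM on forms that are not annotated as protein-coding, for the 21 detected genes that have such a form, with pale bars for replicate 1 and dark bars for replicate 2, split into retained introns (orange) and other forms (blue). Cenpa and Cdk4 have retained-intron shares over 50% in both libraries, and Cdkn1a and Cdk6 have the smallest shares averaged over the libraries.

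A second transcript quantification was deposited for the same libraries, and it shows which values depend on how reads were assigned. Summed per gene, its counts were 1.28 and 1.61 times those of the gene table in the median protein-coding gene of replicates 1 and 2, over the 9996 averaging 50 or more counts. Of the 30 cell cycle genes at that depth, 3 were over 2 times in both libraries (Rrm1, Tyms and Cdk1), beside 6.30% of the 9996. Birc5, below that depth, was over 2 times as well. Birc5 had 34 and 49 counts in the gene table and 442 and 490 in the other, nearly all on Birc5-202. Tyms went from 70 in each library to 368 and 451, Cdk1 from 50 and 52 to 165 and 151, and Rrm1 from 309 and 300 to 751 and 795. The levels of Birc5, Tyms, Cdk1 and Rrm1 are uncertain for that reason.

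The replicate ratios of 4 genes changed sign between the quantifications, E2f1, Mcm3, Cdk1 and Aurka. Of the mitotic genes, 8 of 10 were above 0 in the second quantification, where the group median was 0.40, Cdk1 was at −0.21, Aurka at −0.08 and Birc5 at 0.07. Bub1 and Cenpa stayed past 2-fold there, at 1.06 and 1.46, and Plk1 did not, at 0.73. The D cyclins stood at −0.61, −0.84 and −0.68 for Ccnd1, Ccnd2 and Ccnd3, close to their values in the gene table.

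**Figure D4:**
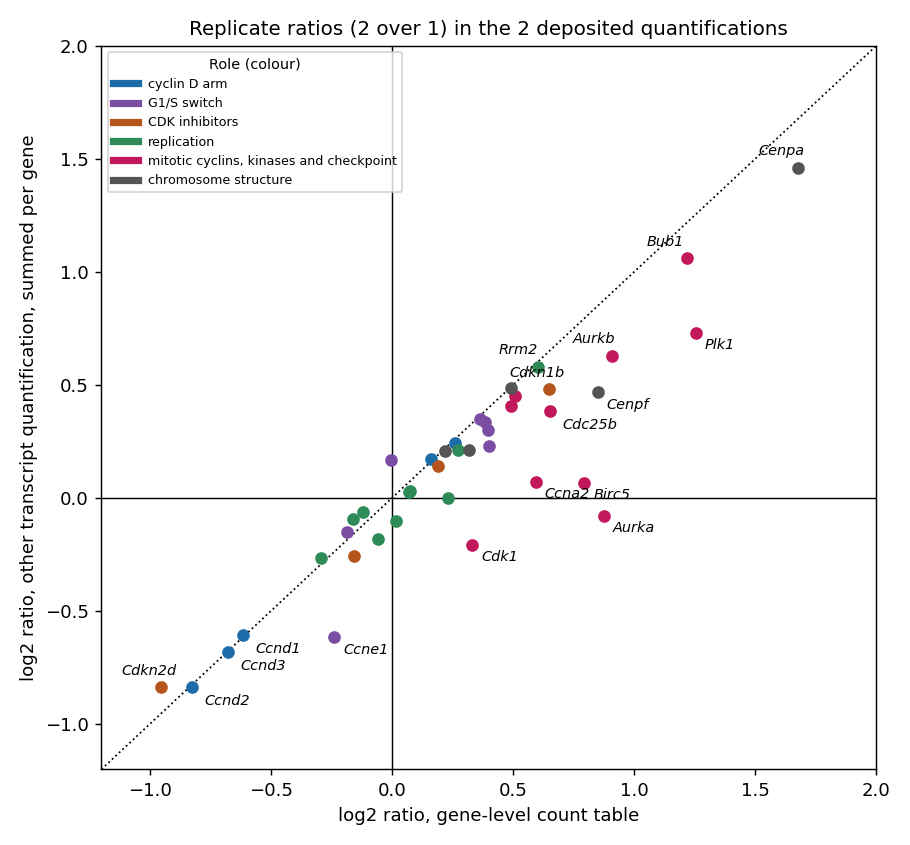
Log2 ratio of replicate 2 over replicate 1 in the gene-level count table (x axis) and in the other transcript quantification summed per gene (y axis), coloured by role, with a dotted line of equality. The D cyclins lie on the line, and Birc5, Aurka and Cdk1 lie well below it.

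Several genes share sequence or position with others, and their values are uncertain to that extent. Mcm7 shares 33.4% of its 31-base words with other genes (chiefly the pseudogene Gm5487), Ccnb1 27.8% (Ccnb1-ps), Cdc20 26.7% (Gm7856) and Pcna 23.3% (Pcna-ps2). Those pseudogenes were given from 0 to 4 counts. Exons of 14 of the 43 genes overlap a gene on the opposite strand, 10 of them a protein-coding gene, and the sources used here do not say whether counting used strand. Ccnd1 overlaps LTO1 over 1100 exonic bases, Ccne2 overlaps Ints8 over 609 and Ccna2 overlaps Exosc9 over 510. LTO1 was given 712 and 468 counts and so differed in the same direction as Ccnd1. Among the 7 mitotic genes with a ratio that share at most 10% of their 31-base words, the median was 0.80 with all 7 above 0.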

How the data were processed

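Expected counts and TPM per gene and per transcript, the percent of a gene's TPM on each transcript, and posterior SD scores were computed by the authors from transcriptome alignments, per the file headers and the deposited descriptions (mm10, GENCODE M21). A second deposited transcript table gives estimated counts and TPM. Effective lengths were taken as deposited. The sources used here do not give the aligner, quantifier or strand setting. Entries that are not genes held 1.06% and 0.245% of counts in replicates 1 and 2 and were left out.

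Expected counts were rounded. edgeR 4.0.16 in R 4.3.3 gave TMM factors (0.945 and 1.06) and the dispersion, with 0.5 added to each count in a ratio, and intervals are exact conditional binomial intervals (scipy 1.17.1). They cover counting error only, as reads are not independent molecules. DESeq2 1.42.0 size factors were an alternative. The ratio step was tested on simulated data. TPM ratios had 0.1 TPM added, and TPM shifted by 0.23 (log2) in the median protein-coding gene. Coordinates and 31-base words came from GENCODE M21, promoters from RefSeq. All 43 genes are named. Of each wider list, named genes are the 3 highest by mean TPM, the largest ratio at a mean count of at least 50, and up to 3 past 2-fold. The CDK inhibitor genes Cdkn2a and Cdkn2b are named besides. The genes, lists and rules were chosen with earlier results of these data known.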

Additional observations from a re-analysis of the deposited data

How the results depend on the processing

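No paired analysis was possible because the series holds 1 group. Of the values recomputed under other settings, later additions apart, 74 were counted as within the error of the main value and 27 as moved. No median that lay beyond its counting error changed sign among these, while the medians of replication (−0.03 and −0.03) and CDK inhibitors (−0.01 and −0.06), within that error, fell below 0 by TPM less the median of all genes and in the other quantification. DESeq2 size factors, 5 added counts, no count minimum and length classes moved none of the medians. Detected genes were 27 in both libraries (9443 of 22028 protein-coding genes), 27 with replicate 1 alone (9609) and 34 with replicate 2 alone (9871). The number was 34 at a TPM limit of 0.5, 18 at 2, 41 with none and 23 in the other quantification. Of these numbers, only the 41 was counted as moved. The median TPM was lower in the other quantification for the cyclin D arm (3.92), G1/S switch (1.47), CDK inhibitors (2.59) and replication (1.501). Leaving out each replicate gave 1.27 to 3.19 TPM for chromosome structure. As a plain TPM ratio, the median log2 ratio was 0.47 for all genes, −0.23 for the cyclin D arm, 0.52 for the G1/S switch, 0.22 for CDK inhibitors, 0.20 for replication, 0.94 for the mitotic group and 0.59 for chromosome structure. Less the median of all genes, it was 0.24 for all genes, −0.46 for the cyclin D arm, 0.29 for the G1/S switch and 0.36 for chromosome structure. With a mean count of at least 50 it was 0.18 for all genes and 0.49 for the mitotic group. In the other quantification it was 0.17, 0.23 and 0.40 for all genes, the G1/S switch and the mitotic group. Genes past 2-fold higher in replicate 2 were 1 by TPM less the median and 1 at a mean count of at least 50. The non-coding share of TPM was 36.8% in the other quantification and 26.1% with either replicate left out (26.05 to 26.14), against 25.2%.

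Added after the values were seen, protein-coding forms alone gave 0.23 for all genes and 0.33 for chromosome structure. Genes sharing at most 10% of 31-base words gave 0.23 for all genes, −0.68 for the cyclin D arm and −0.050 for replication. The G1/S switch reversed to −0.0033 in that set, which leaves out Ccne2 and Rb1. The summed ratio of the progenitor markers was −0.023 without Kit, against 0.41, and that of Cenpa 1.09 without Cenpa-208, against 1.68. Depth limits the mitotic genes most, since their ratios rest on 15 to 143 counts per library. The causes of the other shifts were not tested.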

Other observations

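Other genes of the same pathways were read from 7 lists. Detected were 13 of 17 E2F and pocket protein regulators, 22 of 28 origin and fork genes, 12 of 25 kinetochore and spindle checkpoint genes, 10 of 11 condensin and cohesin genes, 4 of 13 spindle and cytokinesis genes, 12 of 15 genes of the APC/C and SCF ubiquitin ligases and 6 of 9 p53 and arrest genes, beside 42.9% of protein-coding genes. Median replicate ratios were 0.16, 0.20, 0.02, 0.20, 0.77, 0.07 and 0.18 in that order. The spindle and cytokinesis list resembled the mitotic genes in its low level (median 0.56 TPM) and in its ratio.

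The highest regulators were Rbl1 (p107) at 12.5 and 10.1 TPM, Rbl2 (p130), the pocket protein of the DREAM complex, at 8.21 and 13.7 TPM, and the histone chaperone gene Rbbp4 at 8.62 and 11.0 TPM. Foxm1, the activator of mitotic genes, had 57 and 99 counts (log2 ratio 1.07), and the repressor gene E2f7 19 and 34 counts (1.10, but −0.14 in the other quantification). Rbl1 had −0.52, so the pocket protein genes Rbl1 and Rb1 differed in opposite directions.

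Rfc2, Orc4 and Orc3 led origin and fork genes at 43.3 and 44.2, 25.0 and 45.8, and 20.0 and 28.0 TPM, and the clamp loader gene Rfc3 had the largest ratio, −0.87 (−1.25 to −0.51). Cenpb, Incenp and Hjurp led the kinetochore list at 16.2 and 17.1, 11.5 and 12.8, and 8.26 and 11.1 TPM. Hjurp, the chaperone of the Cenpa protein, had a ratio of 0.20. Knl1 had 0.98, and Cenph −1.68 on 17 and 4 counts, but −0.06 in the other quantification. Among cohesin and condensin genes, Stag1, Stag2 and Smc1a led at 16.4 and 21.4, 14.7 and 17.0, and 11.5 and 18.0 TPM, and Ncaph had −0.66.

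The spindle and cytokinesis genes past 2-fold were Aspm at 11 and 34 counts (1.86), Anln at 25 and 66 (1.66), Kif20a at 7.28 and 18.6 (1.65) and Kif11 at 62 and 124 (1.27). Their mean counts all lay from 10 to 100, where 7.2% of protein-coding genes were past 2-fold higher (2.14% at all depths). In the other quantification Aspm, Anln, Kif20a and Kif11 stood at 1.69, 0.52, 0.36 and 0.78. Kif23 and Kif22 had 2.27 and 3.87 TPM and 1.86 and 3.43 TPM. Tpx2, at 278 and 121 counts, had a ratio of −0.92 (−1.25 to −0.61). It and Racgap1, at −0.0012, were the 2 of the 11 measured genes below 0. Kif23, at 0.69, was below 0 in the other quantification, at −0.22. Anapc1, Anapc5 and Anapc2 led the ubiquitin ligase list at 27.8 and 43.3, 33.7 and 37.1, and 14.0 and 12.4 TPM, and Fbxo5, the inhibitor gene of the APC/C, had the largest ratio, 0.62. Mdm2, the p53 ligase and target gene, had 61.1 and 67.9 TPM, and Ccng1 12.1 and 15.1 TPM and Trp53 8.73 and 10.9 TPM. The CDK inhibitor gene Cdkn1c had 11 and 48 counts (2.35, 1.43 to 3.49), and Gadd45a 0.80.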
